A study of Homo sapiens with 4 samples.

Results

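The genes described here are 9 core genes of transforming growth factor beta (TGF-beta) signalling: the ligands TGFB1, TGFB2 and INHBA, the receptors TGFBR1 and TGFBR2, and the intracellular messengers SMAD2, SMAD3, SMAD4 and SMAD7. They were chosen by name, as the rows of the deposited count table whose Ensembl IDs carry these symbols. All 9 were found among the 20263 genes of the table, each in a single row, and all 9 passed the filter on low counts that left 13667 genes for testing. The samples were MDA-MB-231 cells, an established human breast cancer line that lacks hormone receptors, grown in serum. Of the 4 libraries, 2 came from cells treated for 24 h with Rib_CA, which the series title describes as a derivative of ribociclib, a CDK4/6 inhibitor, and 2 from cells given DMSO. The labels give no dose. The labels do not say whether the libraries of a group came from separate cultures, so p-values measure the spread between these libraries, which may be technical.

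TGF-beta and activin are secreted dimers that bring a type II and a type I receptor kinase together on the cell surface. The type II receptor TGFBR2 phosphorylates the type I receptor TGFBR1, which phosphorylates SMAD2 and SMAD3, and these join SMAD4 and act on genes in the nucleus. SMAD7 is itself a target of the pathway and feeds back on it by recruiting ubiquitin ligases to the receptor. In the breast the pathway restrains epithelial growth, whereas in invasive tumours it is known for promoting migration and metastasis, and MDA-MB-231 is a standard line for that response.

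The Rib_CA libraries held 38865103 and 37772266 counts and the DMSO libraries 34774542 and 37754168. Levels are given as CPM, counts relative to the size of the library in the usual CPM unit, with library sizes adjusted by TMM. Mitochondrial transcripts took 5.78 and 3.13% of the counts in Rib_CA and 8.68 and 21.7% in DMSO. Of 6 markers set down for the line, VIM, CD44, AXL, EGFR and KRT18 lay between 180.2 and 4220 CPM in every library, while SPARC did not exceed 1.002 CPM. The receptor genes ESR1 and PGR and the epithelial cadherin CDH1 stayed at or under 1.761 CPM. Of the other markers set down as low or absent, ERBB2 reached 87.12 CPM, GATA3 21.74 CPM and EPCAM 12.15 CPM. Markers of fibroblasts summed to 4.81 to 10.8 CPM and those of endothelial cells to 3.68 to 15.2 CPM, and no gene of the 3 lists of other cell types was called. Leukocyte markers summed to 161.8 to 339.0 CPM, nearly all of it CD68, and the others did not exceed 0.743 CPM, with CD3E at 0, as were DCN among the fibroblast and TEK among the endothelial markers.

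With Rib_CA, TGFB2 fell 3.46-fold, and it was the only member to pass the test. No member rose by the test. The receptor TGFBR2 and the messenger SMAD3, both abundant, lay at nearly the same level in both groups. A gene is called where edgeR's quasi-likelihood test gives an adjusted p under 0.05 over all genes tested. Of the 9 members 1 was called, and it was lower, beside 7.13% of all genes tested, of which 2.01% were higher and 5.11% lower. With 1 call among 9 genes, the members' share of 11.1% cannot be set apart from that background. In bulk RNA, fewer cells expressing a gene and less of its RNA per cell cannot be told apart. The members' median log2 fold change was -0.34, with 7 negative and 2 positive, against a median of 0.03 over all genes tested. After correction of each library for GC content and transcript length, the members' median was 0.24.

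**Figure D1:**
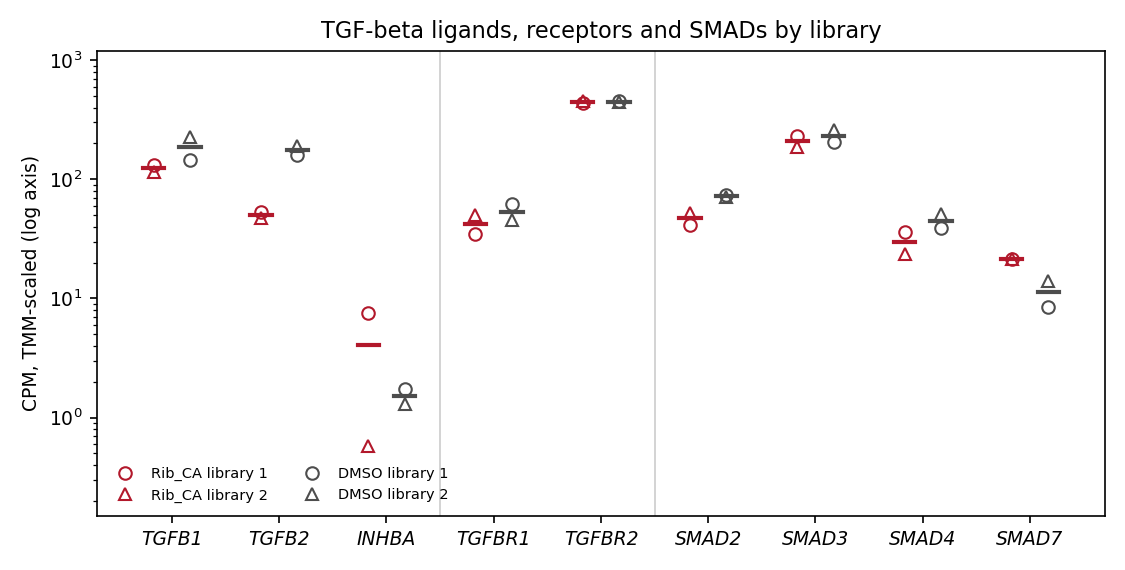
Level of each member in TMM-scaled CPM on a log axis, with Rib_CA left of DMSO; circles are library 1, triangles library 2 and bars the group means. TGFB2 lies at 47.4 to 53.6 CPM in Rib_CA and at 160.5 to 189.2 CPM in DMSO, TGFBR2 lies at 439.6 to 458.0 CPM throughout, and the Rib_CA libraries of INHBA lie far apart.

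TGFB2 encodes the TGF-beta isoform that depends most on the coreceptor betaglycan to reach TGFBR2. It held 53.6 and 47.4 CPM in Rib_CA, against 160.5 and 189.2 CPM in DMSO. Both Rib_CA libraries lay far below both DMSO libraries, and the libraries of a group differed little. The means were 50.5 ± 4.41 CPM in Rib_CA and 174.8 ± 20.3 CPM in DMSO (SD, n = 2 each). This is a 3.46-fold lower level with Rib_CA (log2 fold change -1.79 ± 0.26 SE, adjusted p = 0.0285 by edgeR's quasi-likelihood test), and TGFB2 ranked 125 by p among the genes tested. DESeq2 gave an adjusted p of 1.87e-07. TGFB2 lost its call without the DMSO 2 library (3.18-fold lower, adjusted p = 0.0597). It also lost it after the correction for GC content and length (2.20-fold lower, adjusted p = 0.112), under which no gene of the table passed.

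Fold changes ran along base composition over the whole table, and the members are spread along it. The 3413 genes with the lowest transcript GC content, 30.2 to 42.0%, had a median log2 fold change of -0.54, and 14.1% of them were called lower. The 3413 genes with the highest GC content, 56.8 to 74.7%, had a median of 0.48, and 0.0879% of them were called lower. TGFB2 (38.9% GC), TGFBR1, SMAD2, SMAD4 and INHBA fall among the genes of low GC content, and TGFB1 (63.5% GC) and SMAD7 among those of high GC content. The correction removes a real change along GC content together with a technical one, and which of these holds for the members was not tested.

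In GENCODE 29 (GRCh38), TGFB2 lies on chr1:218346235-218444619, plus strand. The other ligand genes are TGFB1 on chr19:41301587-41353911 and INHBA on chr7:41667168-41705834, both minus strand. The receptor genes are TGFBR1 on chr9:99104038-99154192 and TGFBR2 on chr3:30606502-30694142, both plus strand. SMAD2 (chr18:47808957-47931146, minus), SMAD7 (chr18:48919853-48952052, minus) and SMAD4 (chr18:51028394-51085045, plus) lie on one chromosome, and SMAD3 lies on chr15:67063763-67195195, plus strand. GENCODE 29 places the RNA gene TGFB2-OT1 on the same strand over 26.6% of the exonic bases of TGFB2, and TGFB2-OT1 is not a row of the table. The promoter windows of TGFB2, TGFB1 and SMAD7 are shown because TGFB2 was called, TGFB1 is the other TGF-beta isoform among the members, and SMAD7 is a known direct target of SMADs. They are RefSeq windows (GRCh38.p14) of 300 bases, from 250 before to 50 after a transcription start, printed in the direction of the gene. Capitals mark CAGAC (the SMAD box), CACGTG (an E-box), TGACG (the core of the cyclic AMP element) and TGACTCA (the AP-1 site), on either strand.
TGFB2, chr1:218345086-218345385, plus strand: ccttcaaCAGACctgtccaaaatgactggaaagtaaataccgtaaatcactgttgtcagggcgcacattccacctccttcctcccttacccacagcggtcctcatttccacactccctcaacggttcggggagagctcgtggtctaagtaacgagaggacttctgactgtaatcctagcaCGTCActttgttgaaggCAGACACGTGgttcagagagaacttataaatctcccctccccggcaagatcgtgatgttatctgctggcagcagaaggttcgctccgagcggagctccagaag
TGFB1, chr19:41353873-41354172, minus strand: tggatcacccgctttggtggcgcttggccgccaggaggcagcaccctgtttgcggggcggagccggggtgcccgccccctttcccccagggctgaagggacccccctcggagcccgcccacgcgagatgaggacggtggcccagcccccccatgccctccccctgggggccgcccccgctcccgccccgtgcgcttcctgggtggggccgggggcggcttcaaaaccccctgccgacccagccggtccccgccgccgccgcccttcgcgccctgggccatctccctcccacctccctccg
SMAD7, chr18:48950916-48951215, minus strand, 1 of 3 windows listed: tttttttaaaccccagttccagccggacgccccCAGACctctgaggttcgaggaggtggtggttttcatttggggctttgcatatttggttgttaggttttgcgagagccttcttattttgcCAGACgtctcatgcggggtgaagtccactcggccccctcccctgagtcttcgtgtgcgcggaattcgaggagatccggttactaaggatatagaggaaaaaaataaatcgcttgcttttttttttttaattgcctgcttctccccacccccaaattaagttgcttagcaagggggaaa
Positions are relative to the RefSeq start of each window, which can differ from the GENCODE 29 limits given above. The TGFB2 window lies upstream of the GENCODE 29 limits of TGFB2, and the SMAD7 window lies inside those of SMAD7. In the TGFB2 window, the SMAD box begins at -243 and at -53 relative to the start, the cyclic AMP core at -70 and the E-box at -49, where it shares its first base with the SMAD box. The TGFB1 window holds none of the 4 motifs. The SMAD7 window holds the SMAD box at -217 and -128 and none of the others. Such matches are common. Among 35116 RefSeq windows of the same length, 45.3% hold the SMAD box, 7.26% the E-box, 24.6% the cyclic AMP core and 4.95% the AP-1 site.

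The genes whose profile over the 4 libraries lay nearest to that of TGFB2, among 9687 other genes that averaged 10 CPM or more, were SEC24B, GBP3 and SENP1. Their Euclidean distances in log2 CPM less the gene's mean were 0.0548, 0.0918 and 0.110. SEC24B, which encodes a coat protein of transport vesicles, held 34.02 and 30.1 CPM in Rib_CA and 104.1 and 125.7 CPM in DMSO. With 4 libraries in 2 groups, a small distance says little more than a similar fold change.

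TGFB1 encodes the most widely expressed TGF-beta isoform. It held 132.6 and 114.3 CPM in Rib_CA, against 145.8 and 224.7 CPM in DMSO. The groups did not overlap, but the DMSO libraries lay further from each other than DMSO 1 lay from Rib_CA 1. The log2 fold change of -0.59 ± 0.30 did not pass (adjusted p = 0.255 by edgeR). After correction for GC content and length it was -1.10 ± 0.26 (adjusted p = 0.0960). Without the DMSO 2 library it was -0.24. TGFB1 shares 6.64% of its exonic bases with HNRNPUL1 on the opposite strand, and the use of strand in counting is not given in the sources used here.

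The ratio of these ligands was also taken within each library. Per kilobase of the longest transcript, the level of TGFB1 was 4.51 and 4.40 times that of TGFB2 in Rib_CA, against 1.66 and 2.17 times in DMSO. The ratios did not overlap and are taken within a library, so they do not depend on the scaling between libraries. They do depend on the correction for GC content and length, after which the log2 fold changes of TGFB1 (-1.10) and TGFB2 (-1.14) were nearly equal and the ratio hardly differed between groups. The smallest two-sided p of an exact permutation test over 2 against 2 libraries is 0.333.

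**Figure D2:**
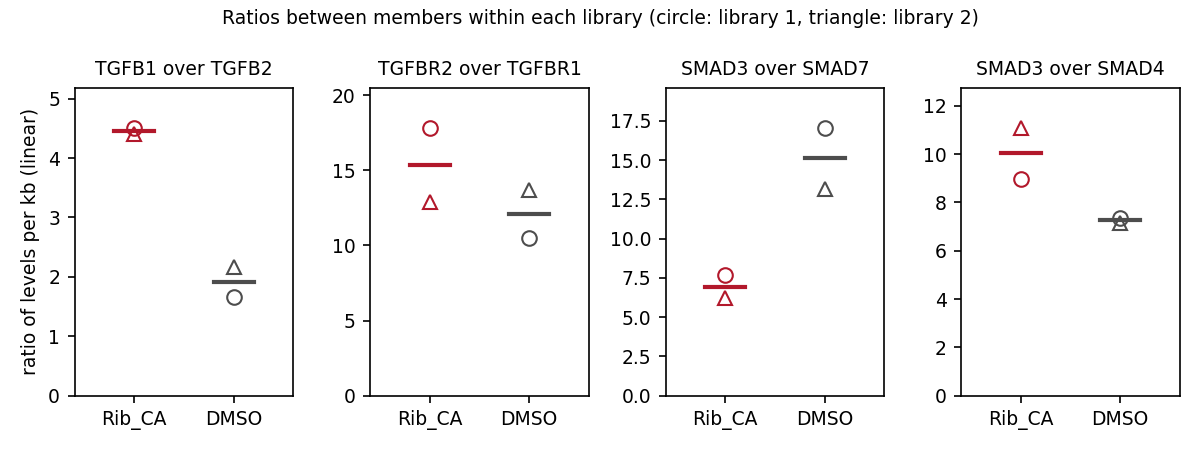
Ratio of levels per kilobase between pairs of members within each library, on linear axes from 0, with Rib_CA left of DMSO; circles are library 1, triangles library 2 and bars the group means. TGFB1 over TGFB2 averages 4.46 in Rib_CA and 1.91 in DMSO, and SMAD3 over SMAD7 averages 6.95 in Rib_CA and 15.1 in DMSO. SMAD3 over SMAD4 averages 10.0 in Rib_CA and 7.25 in DMSO, and neither gene was called. These ratios do not overlap between groups, while TGFBR2 over TGFBR1 does.

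INHBA encodes the subunit of activin A, which signals through SMAD2 and SMAD3 from its own receptors. It held 7.55 and 0.581 CPM in Rib_CA, against 1.73 and 1.31 CPM in DMSO, from 296 and 25 counts in Rib_CA and 60 and 43 in DMSO. Rib_CA 1 lay above both DMSO libraries and Rib_CA 2 below both. The log2 fold change of 1.42 ± 1.02 (adjusted p = 0.406) therefore describes neither library. It was -1.42 without Rib_CA 1 and 2.31 without Rib_CA 2, where INHBA was called (adjusted p = 0.0155 by edgeR). The Rib_CA libraries differed 13.0-fold for INHBA. Among 12473 genes tested that averaged 1 CPM or more, 68 had Rib_CA libraries at least that far apart and 26 had DMSO libraries that far apart, and the median ratio was 1.36 in Rib_CA and 1.2 in DMSO.

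Neither receptor gene passed the test. TGFBR2, the receptor that binds the ligand, held 439.6 and 453.3 CPM in Rib_CA, against 458.0 and 441.6 CPM in DMSO. The 4 libraries interleaved, with a log2 fold change of -0.01 ± 0.25 (adjusted p = 0.984 by edgeR). Its sign turned with scaling by total counts alone (0.19), which raised the median of all genes by 0.20. TGFBR1, the kinase that phosphorylates SMAD2 and SMAD3, held 34.8 and 49.7 CPM in Rib_CA, against 61.5 and 45.5 CPM in DMSO. The groups overlapped, and the log2 fold change was -0.34 ± 0.31 (adjusted p = 0.514). It was 0.38 ± 0.21 after correction for GC content and length. Per kilobase, TGFBR2 exceeded TGFBR1 by 17.8 and 12.9 times in Rib_CA and by 10.5 and 13.7 times in DMSO, without separation of the groups.

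SMAD3, a receptor-activated SMAD that binds DNA directly, held 231.3 and 188.1 CPM in Rib_CA, against 204.9 and 258.9 CPM in DMSO. The groups overlapped, and the log2 fold change was -0.15 ± 0.27 (adjusted p = 0.773 by edgeR; 0.06 with total counts alone). SMAD2, the other receptor-activated SMAD of this branch, held 41.5 and 52.5 CPM in Rib_CA, against 73.3 and 71.0 CPM in DMSO. Both Rib_CA libraries were lower, but the log2 fold change of -0.62 ± 0.27 did not pass (adjusted p = 0.185), and it was 0.54 ± 0.22 after correction for GC content and length. SMAD4, the partner that all such SMADs share, held 36.1 and 23.8 CPM in Rib_CA, against 39.1 and 50.8 CPM in DMSO. The groups did not overlap, by a small margin, and the test did not call the gene (adjusted p = 0.283). Its log2 fold change was -0.58 ± 0.32, against 0.24 ± 0.36 after the same correction. SMAD4 shares 7.37% of its exonic bases with another row of the table, AC091551.1, on the same strand.

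SMAD7, the inhibitory SMAD, was the only member for which both Rib_CA libraries lay above both DMSO libraries. It held 21.3 and 21.5 CPM in Rib_CA, against 8.51 and 13.9 CPM in DMSO. The DMSO libraries lay further apart than those of Rib_CA. The log2 fold change of 0.93 ± 0.34 did not pass (adjusted p = 0.136 by edgeR, unadjusted p = 0.0306). It was 0.67 ± 0.32 after correction for GC content and length, and ranged from 0.61 to 1.33 with 1 library left out. DESeq2 gave an adjusted p of 0.0908. Per kilobase, SMAD3 exceeded SMAD7 by 7.70 and 6.19 times in Rib_CA, against 17.1 and 13.2 times in DMSO.

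Over the 9 members, both Rib_CA libraries lay below both DMSO libraries for TGFB1, TGFB2, SMAD2 and SMAD4, above them for SMAD7, and the groups overlapped for the other 4. Such separation was common in the table as a whole: it held for 58.8% of genes tested, with Rib_CA lower for 28.4% and higher for 30.4%. By edgeR no member was called higher, with 1 (SMAD7) at an unadjusted p under 0.05, and DESeq2 and limma-voom called none higher and TGFB2 alone lower.

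**Figure D3:**
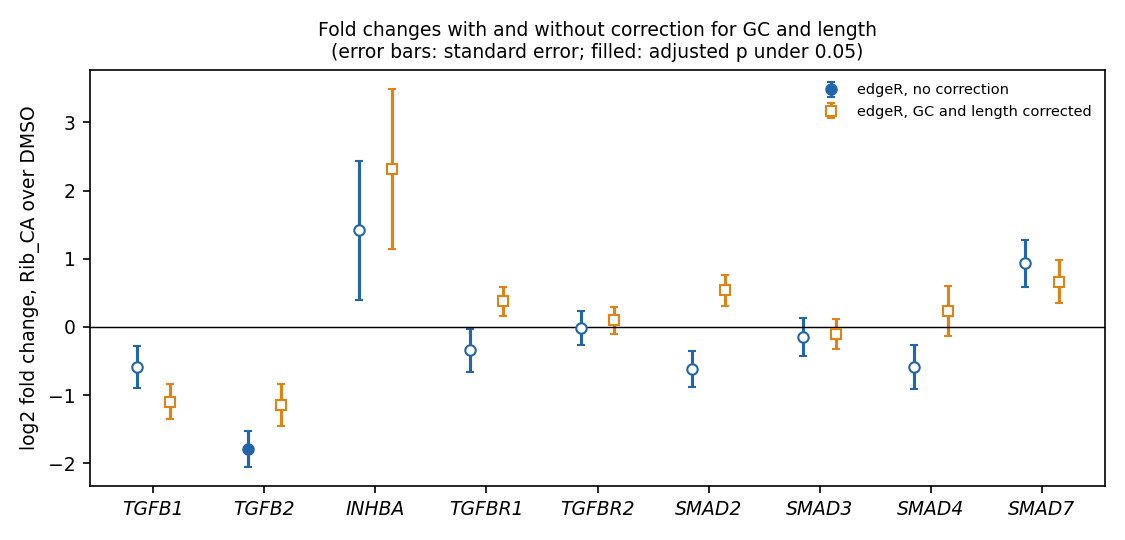
Log2 fold change of each member, Rib_CA over DMSO, with its standard error, as fitted by edgeR (circles) and after correction of each library for GC content and transcript length (squares); a filled symbol has an adjusted p under 0.05. TGFB2 is at -1.14 with the correction and -1.79 without it, TGFB1 at -1.10 with it and -0.59 without, and SMAD2, SMAD4, TGFBR1 and TGFBR2 change sign.

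**Figure D4:**
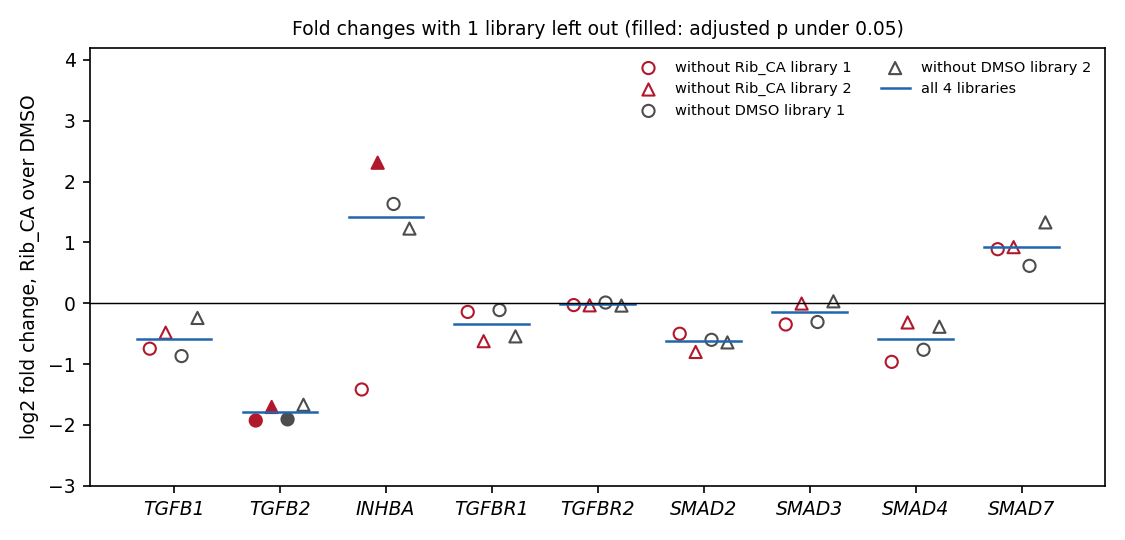
Log2 fold change of each member, Rib_CA over DMSO, with 1 library left out at a time (symbols) and with all 4 libraries (blue lines); a filled symbol has an adjusted p under 0.05. TGFB2 stays between -1.93 and -1.67 and is called in 3 of the 4 fits, while INHBA lies on opposite sides of 0 with either Rib_CA library left out.

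Per kilobase of the longest transcript, the order of levels in Rib_CA was TGFBR2 at 96.6 CPM per kb, TGFB1 at 44.6, SMAD3 at 33.6, TGFB2 at 9.999, TGFBR1 at 6.48, SMAD7 at 4.84, SMAD4 at 3.42, SMAD2 at 1.36 and INHBA at 0.671 CPM per kb. In DMSO it was TGFBR2 at 97.3 CPM per kb, TGFB1 at 66.9, SMAD3 at 37.1, TGFB2 at 34.6, TGFBR1 at 8.21, SMAD4 at 5.13, SMAD7 at 2.53, SMAD2 at 2.09 and INHBA at 0.250 CPM per kb. With the union of a gene's exons as its length, TGFB2 lay above SMAD3 in DMSO, at 33.9 against 25.4 CPM per kb. With the longest transcript, neighbours in these orders lay apart in both libraries of the group, except SMAD2 and INHBA in Rib_CA, and SMAD3 and TGFB2, and SMAD7 and SMAD2, in DMSO. The longest SMAD2 transcript of GENCODE 29 has 34526 bases, so its level per kilobase is a low estimate if shorter transcripts prevail.

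The rest of the pathway was described with 9 lists of 183 genes, of which 152 were tested: 3 were higher and 9 lower with Rib_CA, 7.89% in all beside the 7.13% of all genes tested. Each list below is to be read beside the whole table. Over all 13667 genes tested, 1868 were higher and 2011 lower at an unadjusted p under 0.05. DESeq2 called 1043 higher and 1514 lower, and limma-voom 224 and 658. No list was tested as a set. The list of ligands of the SMAD2 and SMAD3 branch had 7 tested genes, and it includes INHA, an inhibin subunit gene. None of the 7 was called by edgeR, DESeq2 or limma-voom, with 1 higher and 1 lower at an unadjusted p under 0.05. GDF1 in this list shares 100% of its exonic bases with CERS1 on the same strand. TGFB3, the third TGF-beta isoform, held 2.02 and 1.93 CPM in Rib_CA, against 4.76 and 4.52 CPM in DMSO (log2 fold change -1.23 ± 0.41, adjusted p = 0.111 by edgeR). INHBE, another inhibin subunit gene, had 29 and 34 counts in Rib_CA and 10 and 2 in DMSO, and was not called (adjusted p = 0.163). Among 11 tested genes listed as BMP and GDF ligands, which include the protease gene BMP1, 1 was called (9.09% of the list). GDF15, a stress-induced and distant relative that signals through a receptor of its own, held 55.0 and 111.7 CPM in Rib_CA, against 7.61 and 10.2 CPM in DMSO. It was 9.35-fold higher (adjusted p = 0.0285), kept its call with any library left out, and had a log2 fold change of 2.62 to 3.6 in those fits. It lost the call with the correction for GC content and length (5.80-fold higher, adjusted p = 0.0799). BMP2 held 12.4 and 11.5 CPM in Rib_CA, against 5.16 and 3.76 CPM in DMSO (log2 fold change 1.42 ± 0.36, adjusted p = 0.0627), and passed with either Rib_CA library left out.

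None of 13 other receptors and coreceptors and none of 4 other SMADs was called by edgeR or limma-voom, and DESeq2 called 1 receptor gene lower. At an unadjusted p under 0.05, 1 gene was lower and none higher in each of these lists. BMPR2, a type II receptor for BMPs, held 30.8 and 49.4 CPM in Rib_CA, against 87.8 and 79.8 CPM in DMSO (log2 fold change -1.06 ± 0.31, adjusted p = 0.0888). For BMPR1A it was -0.94 ± 0.41, for SMAD1 -0.90 ± 0.31 and for SMAD5 -0.71 ± 0.34, and neither SMAD1 nor SMAD5, which carry BMP signals, was called. After correction for GC content and length these 4 lay between -0.41 and 0.03. BMPR2, BMPR1A and SMAD5 passed without the Rib_CA 2 library. Among 15 tested genes for latency and activation of TGF-beta, none was called by edgeR or limma-voom and 1 by DESeq2, with 2 higher and 1 lower at an unadjusted p under 0.05. FBN1, which encodes the fibrillin that anchors latent TGF-beta, stood at -0.97 ± 0.27 on the log2 scale (adjusted p = 0.0812) and passed without Rib_CA 2. LTBP2, a latent TGF-beta binding protein, stood at 0.80 ± 0.28 (adjusted p = 0.126).

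Among 28 tested genes that restrain or turn over the signal, 3 fell and none rose. That is 10.7% of the list, beside 7.13% of all genes tested. At an unadjusted p under 0.05, 5 were lower and 5 higher, DESeq2 called 5 lower and 4 higher, and limma-voom called 3 lower and none higher. USP9X, a deubiquitinase that acts on SMAD4, held 55.1 and 42.7 CPM in Rib_CA, against 184.4 and 145.7 CPM in DMSO (3.38-fold lower, adjusted p = 0.0287 by edgeR). USP15, a deubiquitinase that stabilises TGFBR1, was 2.92-fold lower (adjusted p = 0.0445). WWP1, a ubiquitin ligase that works with SMAD7 against TGFBR1, was 2.89-fold lower (adjusted p = 0.0297). USP9X and USP15 are known to sustain the signal, although they stand in a list of genes that mostly restrain it. After correction for GC content and length, the genes were 1.63-fold lower for USP9X, 1.25-fold for USP15 and 1.84-fold for WWP1. USP9X lost its call without DMSO 1, and USP15 and WWP1 with either DMSO library left out and with total counts alone.

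Among 19 tested partners and cofactors of SMADs, 3 fell and none rose, 18 had a negative fold change, and the list's median was -0.75 (-0.57 after correction for GC content and length). At an unadjusted p under 0.05, 7 were lower and none higher, DESeq2 called 6 lower and none higher, and limma-voom called 3 lower and none higher. The list's 15.8% called stood beside 7.13% of all genes tested. Of all 13667 genes tested, 2011 were lower and 1868 higher at an unadjusted p under 0.05, and 48.09% had a negative fold change. ZEB1, a repressor of epithelial genes that binds SMADs, held 17.6 and 21.4 CPM in Rib_CA, against 62.9 and 63.8 CPM in DMSO (3.25-fold lower, adjusted p = 0.0287 by edgeR). TRIM33, which binds SMAD2 and SMAD3 and acts on SMAD4, was 2.36-fold lower (adjusted p = 0.0370), and XPO4, an exporter of SMAD3, was 2.47-fold lower (adjusted p = 0.0451). With the correction for composition, ZEB1 was 1.99-fold lower, TRIM33 1.30-fold and XPO4 1.23-fold. All 3 lost their calls with either DMSO library left out and with total counts alone.

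Among 12 tested genes of the kinase routes that TGF-beta receptors use besides SMADs, 3 fell and none rose, with 6 lower and none higher at an unadjusted p under 0.05. DESeq2 called 5 lower and none higher, and limma-voom 3 lower and none higher. ROCK2, a kinase that RhoA activates to contract the cytoskeleton, held 36.1 and 20.4 CPM in Rib_CA, against 137.0 and 110.4 CPM in DMSO (4.38-fold lower, adjusted p = 0.0293 by edgeR). Its relative ROCK1 was 4.04-fold lower (adjusted p = 0.0420), and 6.74-fold lower without the Rib_CA 1 library. TAB2, an adaptor of the kinase TAK1, was 2.86-fold lower (adjusted p = 0.0349). With the correction for composition, ROCK2 was 2.36-fold lower, ROCK1 2.10-fold and TAB2 1.88-fold. ROCK1 and ROCK2 lost their calls without DMSO 1, and TAB2 with either DMSO library left out. TGFB2 and the 9 pathway genes that fell all have transcripts of 36.5 to 40.5% GC.

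Among 43 tested textbook targets of TGF-beta and SMADs, 2 rose and none fell, with 11 higher and 3 lower at an unadjusted p under 0.05, and DESeq2 called 8 higher and 1 lower and limma-voom 2 higher and none lower. The list's 4.65% called stood beside 7.13% of all genes tested. VEGFA, the angiogenic growth factor, held 138.5 and 219.5 CPM in Rib_CA, against 43.9 and 44.3 CPM in DMSO (4.06-fold higher, adjusted p = 0.0285 by edgeR). CDKN1A, the cell cycle inhibitor p21, was 3.43-fold higher (adjusted p = 0.0443). Both genes have many other regulators. VEGFA lost its call with either DMSO library left out and CDKN1A without DMSO 2. With the correction for composition neither was called, at 5.19-fold higher for VEGFA and 2.40-fold for CDKN1A. The list's median was 0.37 (0.15 after correction for GC content and length), and 30 of the 43 had a positive fold change.

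Canonical targets, chosen for description after their values were seen, differed in fold change, and edgeR called none of them. CCN2, which encodes connective tissue growth factor, had a log2 fold change of 0.23 ± 0.35 and TGFBI, a matrix protein named for its induction by TGF-beta, one of 0.12 ± 0.33. PMEPA1 and SKIL, feedback inhibitors of the pathway like SMAD7, had log2 fold changes of 0.26 ± 0.55 and -0.30 ± 0.31. The sign of CCN2 turned without Rib_CA 1 (-0.30), that of TGFBI without DMSO 1 (-0.18) and without Rib_CA 2 (-0.06), that of PMEPA1 without Rib_CA 2 (-0.67), and that of SKIL with the correction for GC content and length (0.46).

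**Figure D5:**
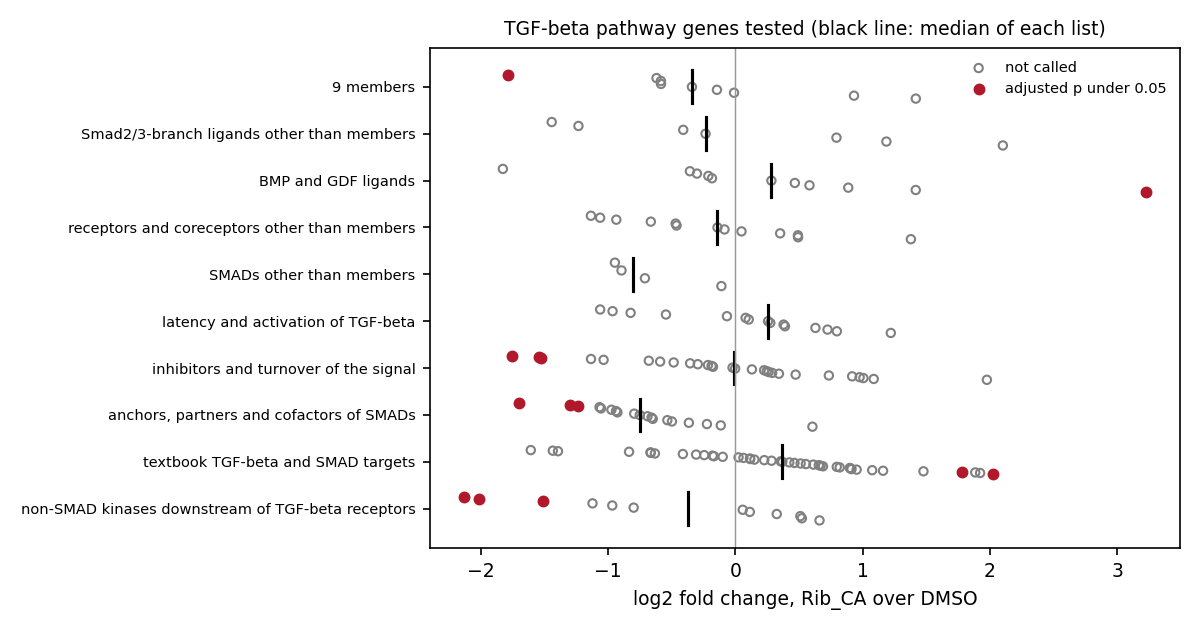
Log2 fold change, Rib_CA over DMSO, of each gene tested among the 9 members and the 9 further pathway lists; red points have an adjusted p under 0.05 and black lines mark each list's median. Partners of SMADs lie mostly below 0 (median -0.75). The called genes number 3 lower each in the lists of inhibitors and turnover, of partners and of kinases. In the list of inhibitors and turnover, 2 of the 3 (USP9X and USP15) are known to sustain the signal. Among targets 2 were higher, in the list of BMP and GDF ligands 1 was higher (GDF15), and among the members 1 was lower (TGFB2).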

How the data were processed

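Libraries of MDA-MB-231 cells were made with an mRNA kit, per the labels' protocols. What the authors deposited is a table of raw, unnormalised counts for 20263 human Ensembl IDs. Mouse builds (GRCm38, mm10) appear in the submitters' processing notes although every ID is human. On the aligner, counter, genome build and use of strand, nothing is given in the sources used here. Even numbers made up 67.7 to 70.7% of counts from 1 to 10, a pattern that counting both mates would give, so counts may not be independent fragments.

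Groups came from the library titles. Libraries of a group differed by far more than counting noise (chi-square over genes 265.3 times its degrees of freedom in Rib_CA and 256.6 times in DMSO). Counts were filtered with filterByExpr (minimum count 10, minimum total 15), scaled by TMM and tested with edgeR 4.0.16 in R 4.3.3 (glmQLFit, robust, with 2 residual degrees of freedom), with Benjamini-Hochberg adjustment over 13667 genes and a threshold of 0.05. Standard errors are the size of the log2 fold change over the square root of F. Symbols came from a table of gene names (20148 IDs), and limits, lengths and GC contents from GENCODE 29 (GRCh38). Promoters came from RefSeq (GRCh38.p14), where all 9 members matched. The GC and length correction used smooths (mgcv 1.9.3, 6 basis functions) of each gene's deviation from its mean over libraries as offsets. Because the smooths also see the treatment, they take out real changes along GC content. Alternatives included DESeq2 1.42.0 and limma-voom (limma 3.58.1). The test was checked on simulated data. Figures were drawn with matplotlib 3.10.9.

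The members were named without use of measured values, but the other pathway lists were written with earlier results of these data known. Named pathway genes are, per list, up to 5 called genes with the smallest p, or the 2 with the smallest p where fewer than 2 were called, and others are marked as chosen after their values were seen. Some results are not reported here.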

Additional observations from a re-analysis of the deposited data

How the results depend on the processing

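With 2 libraries a group, the counts of calls moved with the processing. Over all genes, 275 were higher and 699 lower by edgeR. They were 1043 and 1514 with DESeq2, and 0 and 0 with the GC correction and with the GC and length correction, where 3654 and 3402 genes had an unadjusted p under 0.05, against 3879 without correction. Higher calls were 418 with the 5 CPM filter and 448 with no filter, and lower calls 328 with total counts alone. With 1 library left out, they ranged from 36 to 1234 higher and from 137 to 1634 lower. Among the other pathway lists, the 3 higher and 9 lower calls were 14 and 20 with DESeq2, and 0 and 0 with the corrections. They were 6 and 4 with total counts alone, and 6 were higher with the 5 CPM filter. With 1 library left out, they ranged from 1 to 16 higher and from 1 to 24 lower. Among the members, calls ranged from 0 to 1 lower and from 0 to 1 higher with 1 library left out.

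TGFB2 was lower under every setting run. TGFB2 was not called with the GC correction (log2 fold change -1.15) or the GC and length correction (-1.14), nor in 1 of the 4 fits with a library left out, which ranged from -1.93 to -1.67. No other member was called under any setting except INHBA (-1.42 to 2.31 with 1 library left out), which the 5 CPM filter left untested. TGFBR1 turned to 0.27 and 0.38 with the GC correction and the GC and length correction, and TGFBR2 to 0.0467 and 0.10. SMAD2 and SMAD4 turned to 0.54 and 0.24 with the GC and length correction. With total counts alone, TGFBR2 turned to 0.19 and SMAD3 to 0.0571. TGFBR2 was at 0.0108 without mitochondrially encoded genes, and lay between -0.0391 and 0.0106, and SMAD3 between -0.35 and 0.0311, with 1 library left out. Among the pathway genes, the GC and length correction turned BMPR1A (0.0253), SMAD5 (0.0081), CCN2 (-0.11), SKIL (0.46, and 0.34 with the GC correction) and SMURF2 (0.0164), and the GC correction turned TGFBI (-0.0156). With 1 library left out, signs turned for CCN2 (-0.30 to 0.59), TGFBI (-0.18 to 0.48), PMEPA1 (-0.67 to 0.77) and TGIF2 (-2.69 to 0.69). The cause of these turns was not tested.

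With exon unions as lengths, TGFB1 over TGFB2 was 3.88 in Rib_CA, and SMAD3 over SMAD7 was 5.41 in Rib_CA and 11.8 in DMSO. SMAD3 over SMAD2 was 12.9 in DMSO, and SMAD3 over SMAD4 was 10.3 in Rib_CA and 7.44 in DMSO. The order of SMAD3 and TGFB2 in DMSO turned, with TGFB2 above SMAD3 in both libraries. The replicate numbers are not said to pair libraries, and the deviations of same-numbered libraries were weakly and negatively correlated over genes (-0.186). With the replicate number as a block, 260 genes of the table were higher and 687 lower, 5 pathway genes were higher, and TRIM33 and XPO4 lost their calls. With a crossed pairing, chosen after seeing the data, 724 genes were higher and 1267 lower, and 9 and 18 among the pathway lists.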

Other observations

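Beside INHBA, other secreted or regulatory genes of the pathway lay far apart between the Rib_CA libraries. They were singled out after their values were seen. INHBB, which encodes the other major activin subunit, held 26.6 and 2.58 CPM in Rib_CA, against 37.5 and 41.8 CPM in DMSO. THBS1, which encodes thrombospondin, an activator of latent TGF-beta, held 355.9 and 79.2 CPM in Rib_CA, against 419.6 and 489.3 CPM in DMSO. TIMP3, an inhibitor of matrix proteases, held 156.7 and 29.9 CPM in Rib_CA, against 243.8 and 246.7 CPM in DMSO. TGIF2, a repressor that binds SMADs, held 28.99 and 2.86 CPM in Rib_CA, against 19.98 and 15.97 CPM in DMSO. Rib_CA 2 was the lower library for all 4 genes, as for INHBA, but other genes of the lists went the other way. In Rib_CA 1 and Rib_CA 2, LTBP3 held 16.5 and 49.5 CPM, PMEPA1 3.19 and 8.97 CPM, and GDF7 0.153 and 1.35 CPM. INHBB, THBS1, TIMP3 and TGIF2 were picked after their values were seen, so their common direction cannot be read as a result about the pathway. INHBB, THBS1, TIMP3 and TGIF2 were not called with all libraries. Without Rib_CA 1, where Rib_CA 2 alone stands for its group, their log2 fold changes were -3.99, -2.57, -3.08 and -2.69. These low values follow from how the genes were chosen and are no separate result. Of the 68 genes whose Rib_CA libraries were at least as far apart as those of INHBA, 54 were higher in Rib_CA 1. What sets these libraries apart was not tested.

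The DMSO libraries differed in BMP4, a BMP ligand. It held 56.5 and 33.8 CPM in Rib_CA, against 81.8 and 238.8 CPM in DMSO, with a log2 fold change of -1.83 ± 0.53 (adjusted p = 0.0863 by edgeR and 0.00404 by DESeq2). With 1 library left out, its log2 fold change ranged from -2.41 to -0.86.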
